A study of Mus musculus with 2 samples.

Results

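Purkinje nuclei with high Ebf2 were those that passed the filters on single nuclei (at least 1000 genes detected and at most 5% mitochondrial UMIs), held 4 or more UMIs over Calb1, Skor2 and Car8 together, and held 3 or more Ebf2 UMIs, where a UMI is a unique molecular identifier that marks 1 captured transcript. There were 627 of them, 167 of 325 Purkinje nuclei in the control library and 460 of 852 in the cKO library, out of 10033 filtered nuclei and 11803 barcodes. They were chosen by their measured UMIs of Ebf2, Calb1, Skor2 and Car8, so these 4 genes are given as a description. They are called Ebf2-high below, and the 158 and 392 Purkinje nuclei with 0 to 2 Ebf2 UMIs are called other Purkinje nuclei. Both libraries came from cerebella at postnatal day 1, 12 pooled per library. The control cerebella were from mice that lacked Cre and carried floxed Tox3 (Tox3f/f or Tox3f/+), and the cKO cerebella were from Nestin-cre;Tox3f/f mice, in which Cre acts in neural precursors and their progeny. With 1 library per genotype there was no replicate check, so no test was run, and intervals below are exact 95% intervals that cover counting error only.

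Purkinje cells are the GABAergic output neurons of the cerebellar cortex, and before the adult stripes form they already fall into subtypes set out along the mediolateral axis. Ebf2 encodes a helix-loop-helix transcription factor of the early B-cell factor family, and in the cerebellum it is known for restricting Purkinje cells from the zebrin II (Aldoc) fate. Ndnf encodes a secreted neurotrophic factor and Cdh9 a classical cadherin that mediates adhesion between neurons.

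The members were deeper than most nuclei of their library. Ebf2-high nuclei had a median of 9873 UMIs in control and 8475 in cKO, other Purkinje nuclei 9159 and 7828.5, and all remaining filtered nuclei 4513 and 4121. A single control member held 56828 UMIs, and leaving it out changed the number of lower genes between the libraries from 262 to 240. No barcode was shared between the members of the 2 libraries, and 9 were shared over all barcodes. Nuclei with an Xist UMI and no Y-linked UMI made up 44.9% of the control members and 57.8% of the cKO members, a ratio of 1.29 (0.993 to 1.69), and those with Y-linked UMIs but without Xist made up 38.9% and 27.6%, a ratio of 0.709 (0.522 to 0.972). Xist-only nuclei were also a larger share of other Purkinje nuclei in cKO, 1.37-fold (1.05 to 1.82), and this difference in the mix of female and male cerebella between the pools cannot be told apart from the genotype. Free RNA was not corrected and doublets were left in. The barcodes marked for the highest doublet scores were 3.89% of all control barcodes and 5.56% of all cKO barcodes. They made up 11.4% of the control and 12.6% of the cKO members, and 8.86% and 14.8% of other Purkinje nuclei. In all, the libraries held 22325208 and 33726533 UMIs.

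Ebf2-high nuclei took up about the same share of the Purkinje nuclei in both libraries. They were 51.4% (45.8 to 56.9) of control Purkinje nuclei and 54.0% (50.6 to 57.4) of cKO Purkinje nuclei, a ratio of 1.05 (0.878 to 1.26). As a share of all filtered nuclei they were 4.38% in control and 7.40% in cKO, 1.69-fold higher (1.41 to 2.03), and Purkinje nuclei as a whole were 1.61-fold higher. A share of all nuclei moves with every other cell type, so it does not separate more Purkinje nuclei from fewer of the others.

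The Ebf2 values that chose the members were spread widely and formed no gap at the threshold. The median was 11 Ebf2 UMIs in the members of both libraries, with a quartile range of 7 to 22 in control and 6 to 18 in cKO and a maximum of 59 and 75. In the other Purkinje nuclei the median was 0. The 14 control and 27 cKO nuclei just inside, with 3 Ebf2 UMIs, held 610 and 983 CPM of Plcb4 (UMIs per 1000000 UMIs of the class), and the 21 and 45 nuclei just outside, with 2, held 525 and 1068. At the other threshold, 2 control and 5 cKO members had a sum of exactly 4 over the 3 Purkinje genes, and 2 and 3 nuclei with enough Ebf2 missed it with a sum of 3.

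The label was checked on genes expressed in Purkinje cells that the rule did not use. Foxp2, a forkhead factor of Purkinje cells, had a UMI in 99.4% and 98.7% of the members, and Dab1, the intracellular adaptor of reelin signalling, in 100% of both, against 36.2% and 28.6% (Foxp2) and 53.5% and 49.9% (Dab1) of nuclei with microglia markers. The microglia marker nuclei were shallower, with a median of 5648 and 4526 UMIs against 9873 and 8475 in the members, so part of the gap in these shares can come from depth. Pcp2, a Purkinje gene outside the rule, was at 24.4 and 39.6 CPM in the members and 7.10 and 8.35 in all remaining nuclei. In other Purkinje nuclei Pcp2 was at 41.6 and 40.2 CPM. Aldoc (zebrin II) was near 0, at 3.71 CPM in control and 3.10 in cKO, and stood at 1.28 and 1.81 in other Purkinje nuclei, so at this age it did not mark either class. Markers of other classes were not absent. Microglia markers summed to 125 CPM in control members and 176 in cKO members, against 199 and 287 in all remaining nuclei, and 18.6% and 18.3% of the deeper members held 3 or more of their UMIs, against 9.25% and 11.5% of the remaining nuclei. Their part in the results was not tested. Granule lineage markers summed to 304 CPM in control members and 152 in cKO members, against 1127 and 823 in all remaining nuclei, and Atoh1, the defining factor of granule cell progenitors, had 1 UMI in control and 0 in cKO.

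Ebf2-high nuclei differed from other Purkinje nuclei in a set of genes that was shared by both libraries. Of 5742 genes with at least 100 UMIs over the 2 classes in each library, 144 (2.51%) were at least 1.5-fold higher in Ebf2-high nuclei in both libraries and 160 (2.79%) at least 1.5-fold lower, and the 144 include Ebf2 and Calb1, which the rule used. Each library on its own had 5.61% (control) and 3.61% (cKO) of genes higher and 5.4% and 4.41% lower. Every gene of these nuclei shares the nuclei that Ebf2 chose, so these counts describe the class and test nothing. Without the rule genes, the log2 ratios of the 2 libraries had a Pearson r of 0.70 across 5738 genes, which is a description, since genes are not independent replicates. The 2 libraries had the same sign at 63.2% of these genes.

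**Figure D1:**
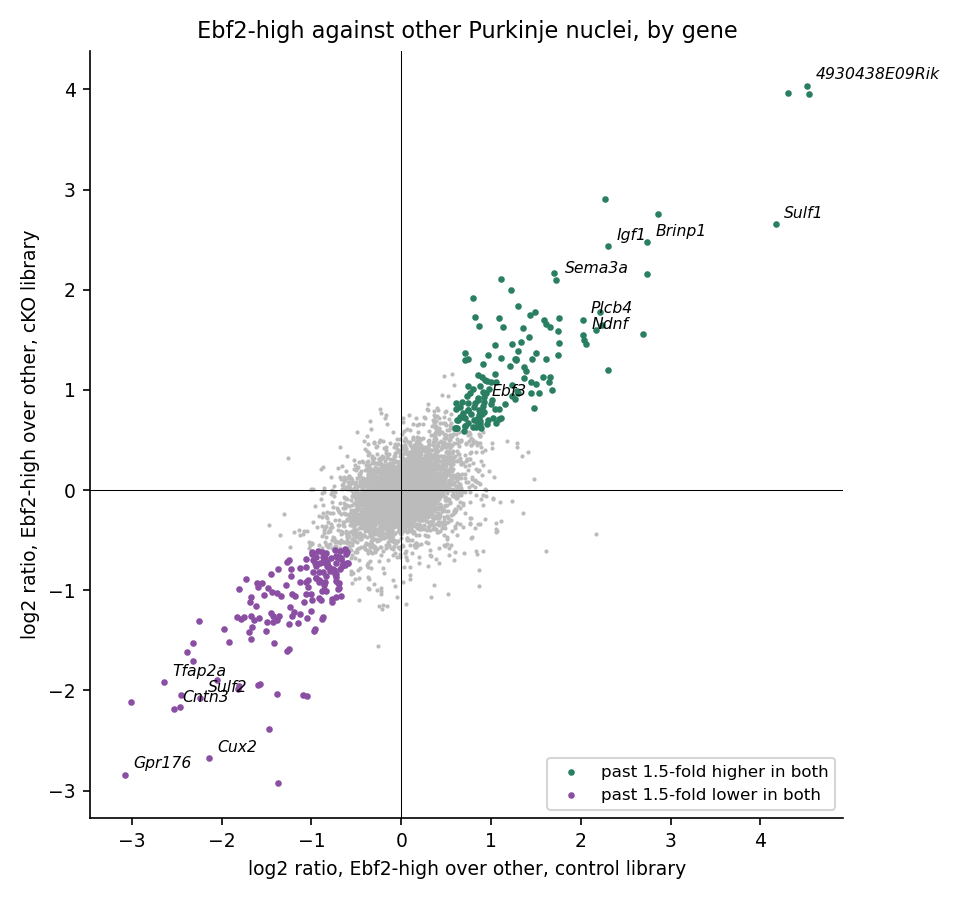
Each point is 1 of the 5738 genes, with the log2 ratio of Ebf2-high over other Purkinje nuclei in the control library on the horizontal axis and in the cKO library on the vertical axis. Green points are the 142 genes and purple points the 160 genes past 1.5-fold in both libraries, and Sulf1, Brinp1 and Igf1 lie far to the upper right while Gpr176 and Cux2 lie to the lower left.

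Both remaining markers of the class had higher summed levels in the members, though in control Cdh9 was not found in a larger share of them. Ndnf was at 459 CPM (429 to 491) in control and 434 (414 to 454) in cKO, against 113 and 149 in other Purkinje nuclei. Ndnf had a UMI in 75.4% and 74.6% of the members and in 34.2% and 36.7% of other Purkinje nuclei. In nuclei with microglia markers, which should lack it and had a median of 5648 and 4526 UMIs, the share was 3.78% and 8.78%. Cdh9 was at 1032 CPM (986 to 1078) in control and 1492 (1456 to 1530) in cKO, against 441 and 373, while it had a UMI in 44.9% and 50.4% of the members, 46.8% and 40.8% of other Purkinje nuclei and 14.6% and 14.7% of microglia marker nuclei.

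**Figure D2:**
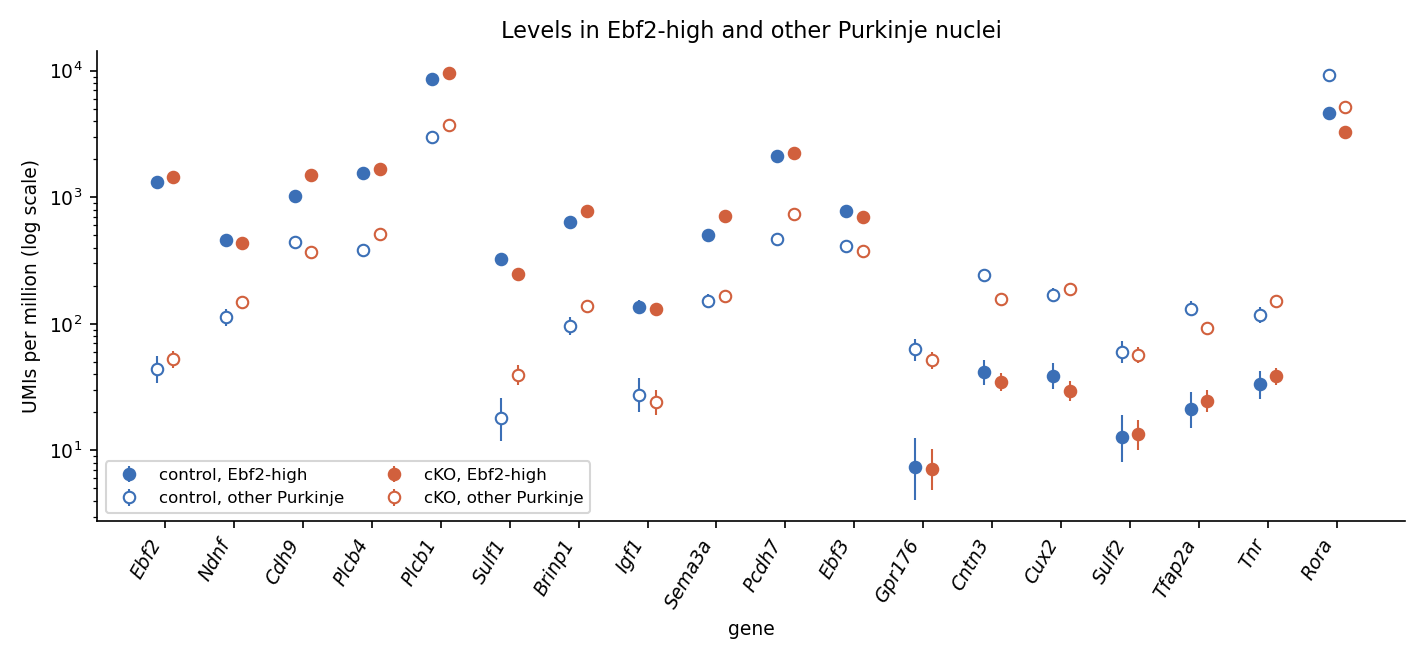
Levels in CPM on a log axis for 18 genes, with filled points for Ebf2-high and open points for other Purkinje nuclei, blue for control and orange for cKO, and bars for exact 95% Poisson intervals. From Ebf2 to Ebf3 the filled points lie above the open points in both libraries, and from Gpr176 to Rora they lie below.

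The 3 genes with the largest excess lay within the Ebf2 gene itself. Ebf2 spans 67233292 to 67430918 on the plus strand of chromosome 14 (GRCm38, GENCODE M21), and 4930438E09Rik, 1700120O09Rik and Gm6878 are annotated on the minus strand inside that span. 4930438E09Rik was at 1075 CPM in control members and 1230 in cKO members, against 46.7 and 74.9 in other Purkinje nuclei. 1700120O09Rik was 23.3-fold and 15.5-fold higher and Gm6878 19.9-fold and 15.6-fold higher. Per member, Ebf2 and 4930438E09Rik had a Pearson r of 0.76 over 167 control nuclei and 0.73 over 460 cKO nuclei, and points in this comparison share their library and the depth of the nucleus. Reads of these transcripts overlap the chosen gene, and whether reads were assigned by strand is not given in the sources used here, so these 3 genes do not stand as separate measurements.

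Outside the Ebf2 locus, Sulf1, Brinp1 and F730043M19Rik were among the genes with the largest ratios in both libraries. F730043M19Rik was at 93.3 and 83.8 CPM in the members against 12.8 and 12.4, 7.28-fold and 6.77-fold higher. Sulf1, an extracellular sulfatase that edits heparan sulfate, was at 323 CPM in control members and 249 in cKO members, against 17.9 and 39.6, which is 18.0-fold (12.3 to 27.3) and 6.30-fold (5.25 to 7.62) higher. Its paralog Sulf2 went the other way, at 12.7 and 13.4 CPM in the members against 60.2 and 56.5. Brinp1, a neuronal gene of the BMP/retinoic-acid-inducible family, was 6.69-fold and 5.56-fold higher, at 643 and 776 CPM.

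Igf1, a secreted growth factor, was at 136 CPM in control members and 131 in cKO members, against 27.5 and 24.2, so 4.93-fold and 5.41-fold higher. Of 11 secreted signals tested, Igf1 and Ndnf were the 2 past the fold upward and none were downward, beside 2.51% and 2.79% of all genes tested, and Ndnf is a marker of the class. Sema3a, a secreted axon repellent, was 3.31-fold and 4.29-fold higher, at 501 and 706 CPM. The 15 genes with the largest excess also held transcripts known only by clone or model names. Gm49678 was at 604 and 450 CPM against 90.3 and 101, and Gm16267, Gm37229 and Gm20713 were each at least 3.26-fold higher in both libraries. Gm16267 lies inside F730043M19Rik on the other strand, so it does not stand as a measurement separate from F730043M19Rik. Gm20713 lies inside Gpc5 on the other strand. Pcdh7, a protocadherin, was 4.51-fold and 3.02-fold higher, at 2119 and 2220 CPM.

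The phospholipase C genes Plcb4 and Plcb1 were higher in the members. Plcb4, which makes the second messenger inositol trisphosphate, was at 1546 and 1668 CPM in the members and 381 and 512 in other Purkinje nuclei. Plcb1 was at 8543 and 9654 CPM against 3010 and 3738. Itpr1, the receptor that releases calcium, was not past the fold, at 1643 and 2157 CPM against 2076 and 1857. Gm14211, a transcript inside Plcb4, was 3.15-fold and 3.08-fold higher, and as it overlaps Plcb4 on the other strand it is not a separate measurement.

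Transcription factors fell on both sides. Of 26 subtype regulators tested, 4 were past the fold upward (Ebf3, Nr2f2, Runx1t1 and Zfhx3) and 5 downward (Rorb, Rora, Bcl11a, Tshz2 and Cux2), beside 2.51% and 2.79% of all genes tested. Ebf3, a family member of Ebf2, was at 775 and 692 CPM against 410 and 377, and Ebf1 was high in both classes at 6070 and 6521 against 5317 and 5228. Zfp423, a zinc-finger partner of Ebf factors that was named after its values were seen, was 2.36-fold and 2.07-fold higher. Cux2, a homeodomain factor, was at 38.7 and 29.6 CPM in the members and 170 and 189 in other Purkinje nuclei. Rora, the nuclear receptor needed for Purkinje cell maturation, was at 4661 and 3309 CPM in the members and 9217 and 5143 in other Purkinje nuclei. Zfhx3 turned direction in control without the single deepest nucleus, from 1.53-fold to 0.853-fold, so it counts above by its value over all members and no direction is given for it.

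Ebf factors are known to bind a palindrome made of the core CCCNNGGG with a T before it and an A after it, so promoters were searched for the core and for the full palindrome, which contains it, over the 300 bases from 250 before to 50 after each start site. Both motifs read the same on either strand. The full palindrome was in 2 of the 91 promoters matched to genes higher in the members (2.20%), in 3 of the 113 matched to genes lower (2.65%), in 1.34% of the promoters of all genes tested and in 1.06% of all 27025 promoters. The core was in 28.6% of the promoters of higher genes, 23.9% of lower genes, 22.6% of all genes tested and 15.4% of all promoters. The stretches upstream of the start site are shown for the 2 higher genes with the full palindrome and for 3 higher genes with the core, taken from RefSeq on GRCm38.p6 and read along the strand of the gene with the motif in capitals.
Fnip2, chr3:79567785-79567854, minus strand: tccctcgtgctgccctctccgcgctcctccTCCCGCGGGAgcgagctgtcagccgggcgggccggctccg
Rreb1, chr13:37888195-37888264, plus strand: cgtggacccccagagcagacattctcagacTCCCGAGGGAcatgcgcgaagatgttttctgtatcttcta
Ebf3, chr7:137314446-137314496, minus strand: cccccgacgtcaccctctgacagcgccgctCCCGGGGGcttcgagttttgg
Zfp423, chr8:87804440-87804497, minus strand: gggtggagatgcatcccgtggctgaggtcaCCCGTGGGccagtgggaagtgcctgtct
Robo2, chr16:74411996-74412063, minus strand: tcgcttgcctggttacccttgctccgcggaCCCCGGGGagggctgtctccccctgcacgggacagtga

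Rreb1, a zinc-finger factor, was at 63.1 and 63.0 CPM in the members against 15.4 and 22.3 in other Purkinje nuclei, and Fnip2, which binds folliculin, was at 89.6 and 102 against 58.3 and 66.1. A match in these windows is a description of the letters and not of binding.

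Genes lower in the members held several adhesion and guidance receptors. Gpr176, an orphan receptor, was at 7.42 and 7.16 CPM in the members and 62.8 and 51.3 in other Purkinje nuclei, 8.46-fold (4.81 to 16) and 7.17-fold (4.84 to 10.9) lower. Cntn3, a contactin of the cell surface, was 5.77-fold and 4.54-fold lower, and the antisense transcript 4930587E11Rik inside Cntn3 was 5.53-fold and 4.48-fold lower. Tfap2a, a transcription factor, was at 21.2 and 24.6 CPM against 132 and 92.7. Col4a2, a collagen of basement membranes, and Tnr, an extracellular matrix protein, were 4.14-fold and 3.53-fold lower in control and 3.71-fold and 3.95-fold lower in cKO.

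Of 35 axon guidance genes tested, 10 were past the fold downward and 3 upward, and the list's median log2 ratio was -0.19 in control and -0.29 in cKO, beside 0.01 and -0.03 over all genes tested, of which 2.79% were lower and 2.51% higher. The lower ones included the ephrin receptors Epha3, Epha5, Epha7 and Ephb2 and the semaphorin coreceptors Nrp1 and Nrp2, and the higher ones were Sema3a, Epha10 and the Slit receptor Robo2. Epha5 was at 536 and 758 CPM in the members against 2021 and 2161. Robo2 was at 2563 and 2623 CPM against 1239 and 1175. Among 18 cadherins and protocadherins tested, Cdh4, Cdh9 and Pcdh7 were higher and Cdh10, Cdh11 and Pcdh10 lower, with Pcdh10 at 94.3 and 153 CPM against 472 and 502. Of 32 glutamate receptors and partners, Gria1 and Grik1 were lower, at 568 and 652 CPM against 1169 and 1211 and at 681 and 960 CPM against 1840 and 1943, and none were higher. None of 18 genes of GABA and glycine transmission and none of 11 of reelin signalling were past the fold. Of 42 channels, Kcnq3 was higher, at 604 CPM in both libraries against 383 and 364, and Kcna4, Kcnn3, Kcnt2 and Kcnh8 were lower. Slc1a6, the Purkinje glutamate transporter that follows zebrin stripes in the adult, was 3.55-fold and 2.41-fold lower.

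Levels moved with Ebf2 also within the class. In control, Plcb4 went from 610 CPM at 3 Ebf2 UMIs to 995 at 4 to 7 and 2154 at 16 or more. In cKO it went from 983 to 1201 and 2148 over the same bins. Outside the class, at 0 Ebf2 UMIs, Plcb4 was at 292 CPM in control and 404 in cKO. Ndnf was highest at 8 to 15 Ebf2 UMIs, at 653 CPM in control and 525 in cKO, and lower again at 16 or more, at 400 and 376. Sulf1 also peaked at 8 to 15, at 515 and 370 CPM. Cdh9 was highest at 16 or more, at 1637 CPM in control and 2622 in cKO. Outside the class, at 1 and 2 Ebf2 UMIs, Cdh9 was at 641 and 821 CPM in control. At 4 to 7 and 8 to 15 it was at 569 and 589 there, so in control only the bin at 16 or more stood above the bin at 2. In cKO the same 4 bins were at 315, 791, 649 and 1082. The bin at 16 or more was also the deepest of each library, with a median of 11103 and 9678 UMIs, while depth did not climb steadily over the lower bins.

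**Figure D3:**
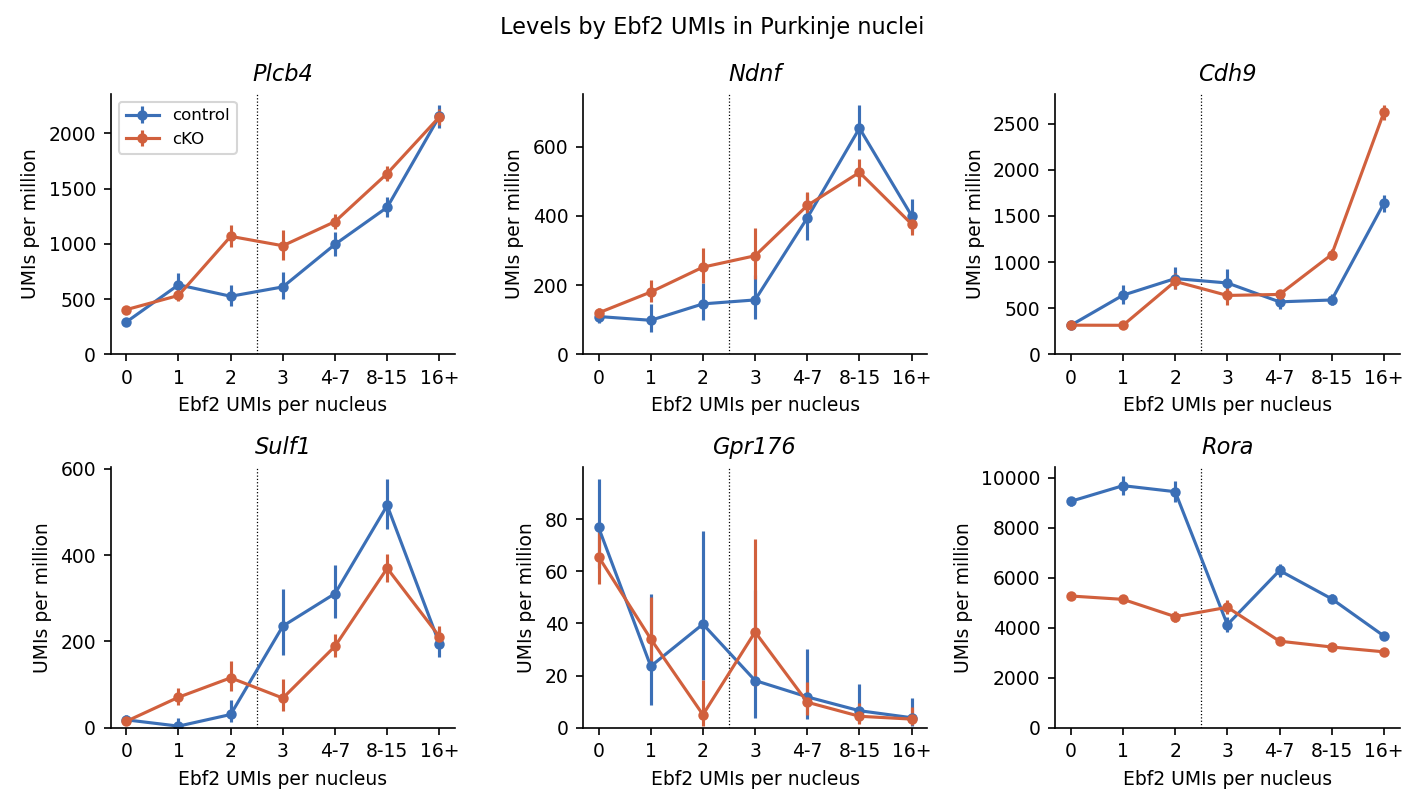
Levels in CPM of 6 genes in Purkinje nuclei binned by their Ebf2 UMIs, blue for control and orange for cKO, with bars for exact 95% Poisson intervals and a dotted line at the membership threshold. Plcb4 is lowest at 0 and highest at 16 or more, Ndnf and Sulf1 peak at 8 to 15, Cdh9 is highest at 16 or more, and Gpr176 is lowest at 16 or more.

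The members were not uniform, and Cdh9 split them. Of the control members, 92 of 167 had 0 Cdh9 UMIs and 50 had 10 or more, and of the cKO members 228 of 460 had 0 and 159 had 10 or more. The cut at 10 and the genes named for it were chosen after their values were seen, so these levels are given with no test. Nuclei with 0 Cdh9 UMIs had a median of 9320 UMIs in control and 8303.5 in cKO, and those with 10 or more had 10222 and 8636. The genes of the membership rule were also higher where Cdh9 was 10 or more. Calb1 was at 962 and 1127 CPM there against 297 and 477 where Cdh9 was 0, and Ebf2 at 1725 and 1718 against 1241 and 1240.

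Nuclei with 10 or more Cdh9 UMIs held more Sema3a, at 1163 CPM in control and 1284 in cKO, against 144 and 184 where Cdh9 was 0. Brinp3, a paralog of Brinp1, was at 2170 and 1731 CPM against 90.6 and 178. Gm49127 was at 1051 and 1094 CPM against 0.996 and 4.60, but it is annotated on the minus strand inside Cdh9, so it does not stand as a separate measurement of this split. Hmga2, a chromatin protein of early development, was at 181 and 185 CPM against 26.9 and 17.9, and Igf1 was at 306 and 212 against 64.7 and 87.4.

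Nuclei with 0 Cdh9 UMIs held more Sulf1, at 509 CPM in control and 455 in cKO, against 46.2 and 32.7 where Cdh9 was 10 or more. Ndnf was at 610 and 606 CPM against 299 and 316, but the share of nuclei with an Ndnf UMI was alike, at 78.3% and 77.6% against 80% and 80.5%. Cdh8, another classical cadherin, was at 940 and 996 CPM against 119 and 48.1. The nuclear receptor Nr2f1 was at 82.7 and 80.8 CPM against 19.6 and 13.3. Plcb1 did not split this way, at 9228 and 10232 CPM where Cdh9 was 0 and 9147 and 10891 where it was 10 or more. Per member, Cdh9 and Sema3a had an r of 0.68 in both libraries and Ndnf and Pcdh7 an r of 0.55 and 0.54, while Pcdh7 and Tshz2 had an r of -0.53 and -0.55, over 167 and 460 nuclei that share library and depth.

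**Figure D4:**
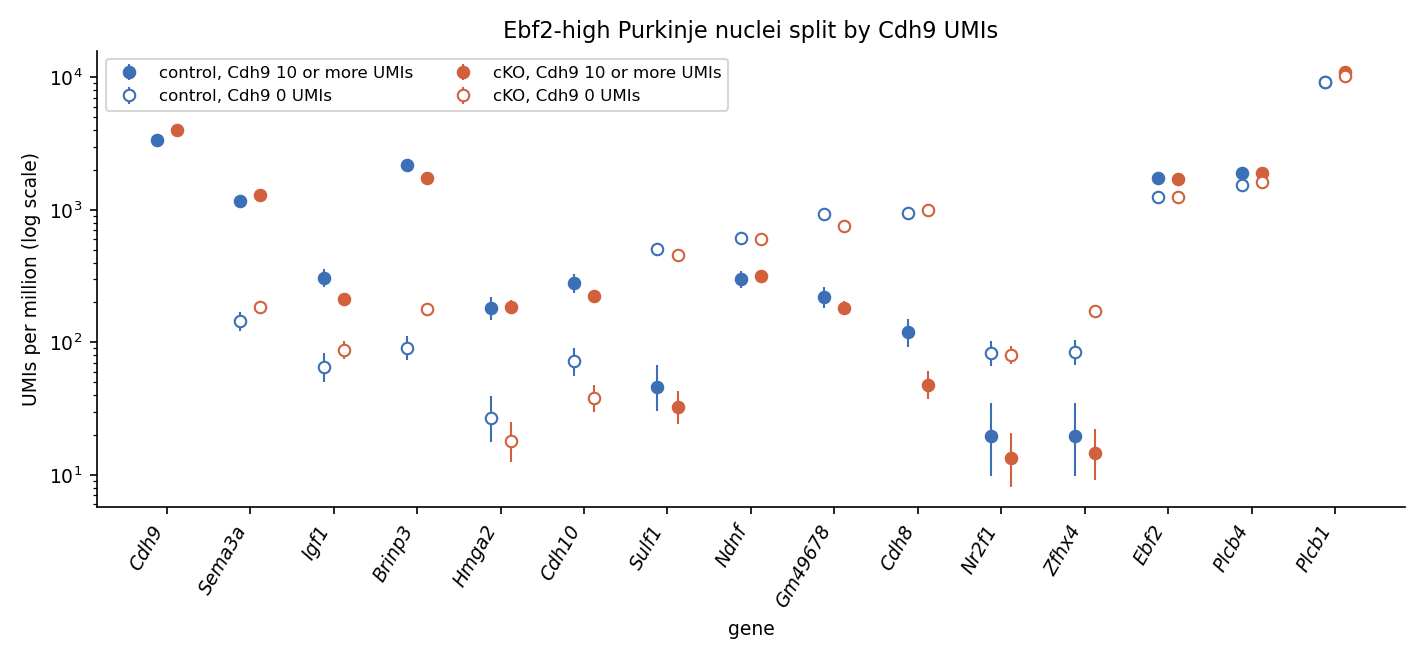
Levels in CPM on a log axis in Ebf2-high nuclei with 10 or more Cdh9 UMIs (filled) and with 0 (open), blue for control and orange for cKO, with bars for exact 95% Poisson intervals; open Cdh9 points at 0 are not drawn. Sema3a to Cdh10 are higher in the filled points and Sulf1 to Zfhx4 in the open points of both libraries. Ebf2 and Plcb4 are slightly higher in the filled points, while Plcb1 is level.

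Tox3, the targeted gene, was not lower in the members of the library labelled cKO. It was at 157 CPM (139 to 176) in control members and 157 (145 to 170) in cKO members, a ratio of 1.00 (0.872 to 1.15). In other Purkinje nuclei it was at 78.1 CPM in control and 117 in cKO. UMIs read from the 3′ end can come from outside the deleted part of a gene, so this level does not check the labels. By quantitative RT-PCR on whole cerebella of this mutant line at the same age, the paper reports that Tox3 was almost fully deleted. Tox3 was higher in the members than in other Purkinje nuclei, 2.01-fold in control and 1.34-fold in cKO.

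Between the libraries, the members differed in more genes downward than upward in the library labelled cKO. Of 7888 genes with at least 100 UMIs over the members of both libraries, 116 (1.47%) were at least 1.5-fold higher and 262 (3.32%) at least 1.5-fold lower. In other Purkinje nuclei 2.18% of 7103 genes were higher and 1.75% lower. None of the class's own markers was past the fold. Ndnf was at a ratio of 0.945 (0.871 to 1.03), Ebf2 at 1.09 (1.04 to 1.14) and Cdh9 at 1.45 (1.37 to 1.52). Plcb4 was at 1.08 (1.03 to 1.13), Igf1 at 0.963 (0.828 to 1.12) and Sulf1 at 0.772 (0.698 to 0.855).

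Genes lower in the cKO members included several of the granule lineage. Nav2, a regulator of neurite growth, was at 392 CPM in control members and 91.2 in cKO members, Reln, the secreted glycoprotein that granule cells release, at 320 and 100, Cadps2, which primes dense-core vesicles, at 411 and 131, and Pax6, a granule lineage factor, at 82.1 and 22.0. In control nuclei with granule markers Nav2 stood at 2328 CPM and Reln at 2080. Of the 262 lower genes, 135 (51.5%) were at least 2-fold higher in those control granule nuclei than in control members. The same held for 18 of the 116 genes higher in cKO members (15.5%) and for 5.26% of the 7510 genes between the thresholds. The 8 granule markers summed to 304 CPM in control members and 152 in cKO members, 30.5% and 16.1% of the members held 3 or more of their UMIs, and the 4 of them that were tested had a median log2 ratio of -0.85. Their part in the lower genes was not tested. When nuclei with 3 or more UMIs over the markers of any other class were left out, Nav2 was at a ratio of 0.594 and Reln at 0.467. The number of lower genes went from 262 to 126, but this left 96 of the 167 control members under the same minimum of 100 UMIs, and thinning all nuclei to 5000 UMIs gave 107.

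Of the 262 lower genes, 6 (2.29%) were at least 2-fold higher in control members than in all remaining control nuclei and 3 (1.15%) in cKO, against 8.31% and 7.64% of the 7510 genes between the thresholds. Lpar1, a lysophosphatidic acid receptor, had the lowest ratio of the 6, at 31.3 CPM in control members and 12.4 in cKO members, a ratio of 0.397 (0.268 to 0.587), and among nuclei with a Y-linked and no Xist UMI the ratio was 1.09. Lpar1 went the other way in other Purkinje nuclei, at 7.05 and 13.9 CPM. In all remaining nuclei it was at 12.2 and 21.3 CPM, so in cKO the members were below them. The other genes of the 6 were Gm48715, Gm15679, Sult2b1, Gm26713 and Cyp46a1, named because they are 5 in number and chosen after their values were seen.

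Of the 116 higher genes, 24 (20.7%) were at least 2-fold higher in cKO members than in all remaining cKO nuclei and 14 (12.1%) in control, against 7.64% and 8.31% of the genes between the thresholds. The cKO count is raised by the choice of genes that are high there. Itpka, a kinase of inositol trisphosphate, was at 17.0 CPM in control members and 38.7 in cKO members, a ratio of 2.28 (1.55 to 3.45), and it stayed between 2.04 and 2.40 without doublets, without nuclei holding other markers and in both sex-marked sets. Pcp2, a Purkinje protein, was at 24.4 and 39.6 CPM (1.63, 1.17 to 2.31) and Cck, a neuropeptide, at 29.7 and 49.2 (1.66, 1.23 to 2.27), but in nuclei with Xist and no Y-linked UMI these were 1.02 and 1.12, and in nuclei with Y-linked and no Xist UMI 2.39 and 2.61. Without nuclei holding markers of other classes they were 1.30 and 1.05. Over 23 Purkinje identity genes tested, 20 had a ratio above 1, beside 3687 of all 7888 genes, with a median log2 of 0.24, beside -0.02 over all genes, and 2 were past the fold (Lhx5 and Pcp2). Genes that the membership rule used (Calb1, Skor2 and Car8) were not left out of this count, so it is given as a description. The median was 0.11 without nuclei holding markers of other classes and 0.12 with nuclei thinned to 5000 UMIs.

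Some of the largest ratios rested on few nuclei. Mrc1, a macrophage receptor, was 7.98-fold higher (3.76 to 20.3), with 7 UMIs in control and 124 in cKO, of which 45 were in a single nucleus. Mrc1 had a UMI in 4.19% and 4.78% of the members, and it stood at 427 and 985 CPM in microglia marker nuclei and its ratio was 2.96 without doublets and 0.721 in nuclei with Xist and no Y-linked UMI, so no direction is given for it. Hs3st4, a heparan sulfate sulfotransferase, was at 29.7 and 84.0 CPM, a ratio of 2.83 (2.13 to 3.83), with a UMI in 18.6% and 24.3% of the members and 31.4% and 26.9% of microglia marker nuclei. Them4, Abcb9, Zfp37 and Ap3m2 were between 2.01-fold and 2.39-fold higher, each with 17 to 22 UMIs in control.

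Rora was lower in the cKO library in both classes, at 4661 and 3309 CPM in the members, a ratio of 0.710 (0.691 to 0.729), and 9217 and 5143 in other Purkinje nuclei, a ratio of 0.558. Meis1, a homeodomain factor, was at 200 CPM in control members and 83.6 in cKO members. Granule lineage markers also went from 304 to 152 CPM in these members, and their part in the Meis1 level was not tested. Of 27 subtype regulators tested between libraries, 1 (Zfhx4) was past the fold upward and 4 (Zfhx3, Meis1, Tox and St18) downward, beside 1.47% and 3.32% of all genes, and the median log2 ratio was -0.10, beside -0.02 over all genes. Zfhx3 turned to 1.56 with nuclei thinned to 5000 UMIs and to 1.05 without nuclei holding markers of other classes, so no direction is given for it.

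**Figure D5:**
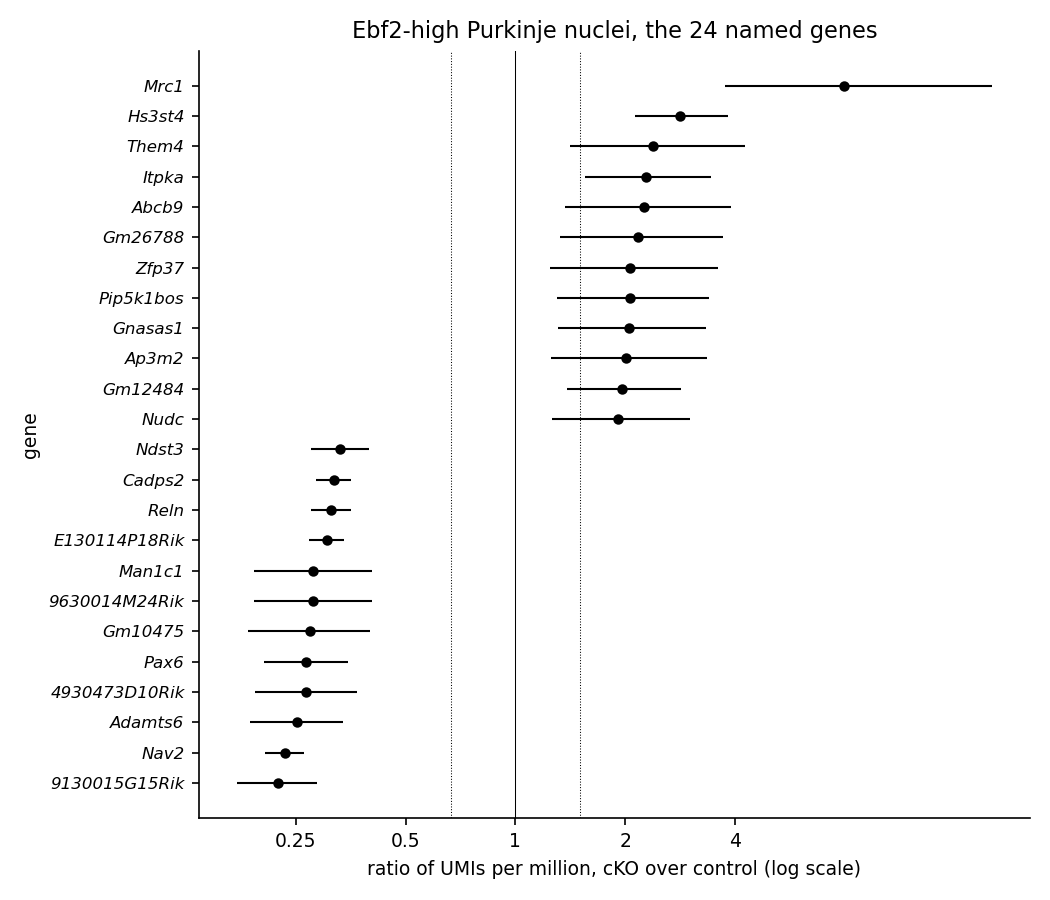
Ratio of CPM, cKO over control, in Ebf2-high nuclei for the 12 highest and the 12 lowest genes by the rule, on a log axis, with bars for exact 95% intervals, a solid line at 1 and dotted lines at the fold of 1.5. The upper genes have wide intervals because they hold few UMIs, and the lower ones, such as Nav2 and Reln, have narrow ones.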

How the data were processed

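The deposited matrices hold raw UMI counts per gene and nucleus, which the authors made with Cell Ranger 7.0.1 on the mm10 (GRCm38) reference, per the labels; whether intronic reads were counted, and by which strand, is not given in the sources used here. Nuclei came from 1 pool of 12 cerebella per library, so genotype, pool and library cannot be told apart. Per library, filters kept nuclei with at least 1000 of 32285 genes and at most 5% mitochondrial UMIs. UMIs of a class were summed and divided by the class total (CPM). A gene was tested if it had at least 100 UMIs over the groups compared, and called if past 1.5-fold; no p-value was computed. Ratios have exact conditional binomial intervals, levels exact Poisson intervals, shares Clopper-Pearson intervals, all at 95%, and functions were tested on simulated data. Named genes were the 15 highest and 10 lowest Ebf2-high over other by the smaller log2 ratio of the 2 libraries with a pseudocount of 5 CPM, the 12 highest and 12 lowest between libraries, and list genes. Members and lists were chosen with earlier results of these data known. Coordinates are from GENCODE M21. Python 3.11.15, NumPy 2.4.6, SciPy 1.17.1 and Scanpy 1.11.5 were used. Alternatives changed the thresholds, scaling, depth (thinning to 5000 UMIs), sex-marked sets, nuclei with markers of other classes and doublets (the highest Scrublet scores, 0.8% per 1000 barcodes). Some genes are not reported here.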

Additional observations from a re-analysis of the deposited data

Results flagged for a closer look

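5 of the 6982 genes tested in both classes moved past 1.5-fold in opposite directions between the libraries, lower in cKO among Ebf2-high nuclei and higher in cKO among other Purkinje nuclei; the difference itself was not tested. Tox was at a ratio of 0.575 in Ebf2-high and 1.61 in other Purkinje nuclei. Chn2, a Rac GTPase-activating protein, was at 0.553 and 1.59. Thsd4 was at 0.470 and 1.60, and Adgrv1 at 0.648 and 1.73. Tle4, a transcriptional corepressor, was at 0.569 and 1.55. Their counts were low, from 26 to 169 UMIs per library and class.

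Nuclei outside the Purkinje class also held 3 or more Ebf2 UMIs, a signal that the comparisons do not use, and their share was larger in cKO. They were 76 of 3491 control nuclei (2.18%, 1.72 to 2.72) and 206 of 5365 cKO nuclei (3.84%, 3.34 to 4.39), a ratio of 1.76 (1.35 to 2.33). The members, as a share of all filtered nuclei, had a ratio of 1.69, and both shares move with every other cell type. Of the nuclei outside the class with enough Ebf2, 17 in control and 73 in cKO held a UMI of Calb1, Skor2 or Car8. Markers of glutamatergic nuclei and unipolar brush cells summed to 801 and 743 CPM in the 76 and 206 nuclei, against 255 and 281 in all nuclei outside the Purkinje class.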

How the results depend on the processing

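No paired analysis was possible because there is 1 library per genotype. The ratio of the Ebf2-high share stayed between 1.015 and 1.14 under the alternatives that changed the nuclei, all on the same side as the reported 1.05. Counts of genes moved with the minimum: at 50 UMIs there were 350 higher and 565 lower genes between libraries, and at 200 there were 31 and 117. At 2-fold there were 10 and 61. Thinning to 5000 UMIs left 107 lower. Leaving out nuclei with markers of other classes left 126 lower, a granule median of -0.23 and an identity median of 0.11. Nuclei with Xist alone gave 163 lower and Y-linked alone 72 higher and 83 lower. Thinning gave an identity median of 0.12. Y-linked nuclei gave a Tox3 ratio of 0.825 and too few granule UMIs for a median. Between classes, 2-fold left 61 higher and 63 lower, 200 UMIs 99 lower, thinning 101 lower, Xist 102 and Y-linked 97. Directions that turned are Zfhx3, cKO over control (1.56 thinned, 1.05 without other markers), Zfhx3 over other in control (0.521 thinned, 0.782 without doublets, 0.694 without other markers, 0.443 in Y-linked nuclei, and 0.853 without the deepest nucleus, an alternative chosen after seeing the data), E130114P18Rik (1.29 without other markers), Lpar1 (1.09) and Man1c1 (1.11) in Y-linked nuclei, and Mrc1 (0.721 in Xist nuclei). The cause was not tested. Of 1494 values of single genes under alternatives, 1180 moved by less than their counting interval, 303 moved beyond it and 11 turned. With 1 pool per genotype no replicate error exists, and the control members hold 1887223 UMIs against 4188435.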
